A study of Mus musculus with 4 samples.

Results

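Imprinted genes are genes that are read mainly or only from the copy inherited from one parent. The set described here holds 10 of them, chosen by symbol: H19, Peg3, Plagl1, Meg3, Grb10, Mest, Ndn, Peg10, Nnat and Zim1. All 10 were among the 23281 gene symbols of the table. The study sequenced RNA of mouse nasal basal cells in 4 libraries. The 1 library of respiratory basal cells (RBCs), the stem cells at the base of the respiratory epithelium, came from microdissected tissue of mice with the genotype KRT5-CreER;Ai9-fl(stop)TdTomato, sorted for TdTomato+ cells. In that strain the keratin 5 promoter drives an inducible Cre recombinase that switches on the red reporter, so any cell that has used this promoter can carry the label. The 3 libraries of horizontal basal cells (HBCs), the reserve stem cells of the olfactory epithelium, came from wildtype mice, were grown in culture to passage 3 under control conditions and were not sorted. Tissue of origin, culture, strain and sorting thus all differ between the groups and cannot be told apart. The labels give no ages, and whether separate animals gave the 3 HBC libraries is not stated. A p-value here thus reflects spread among libraries that may be technical repeats.

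Genomic imprinting rests on DNA methylation laid down differently in egg and sperm at control regions, which then governs whole clusters of neighbouring genes. Paternally expressed genes include many that favour growth, and maternally expressed genes include many that restrain it. Several imprinted genes are known to be expressed together in the embryo, to fall after birth and to stay on in some adult stem cells, among them stem cells of blood, muscle and lung. The deposited values are totals per gene and do not separate the parental copies, so they measure how much RNA each gene had and not whether it was imprinted in these cells.

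Levels are given as depth-scaled FPKM, that is, the authors' fragments per kilobase of transcript divided by 1 factor per library, and they can be compared between genes because they are per length. HBC means carry their SD over 3 libraries, whereas RBCs have 1 library and no replicate. Changes are RBC minus HBC on the log2(value + 1) scale with their standard error, from limma fitted to 16440 genes. To be called, a gene had to differ by 2-fold or more with a Benjamini-Hochberg adjusted p under 0.05. Only the HBC libraries provide a spread, which the test then takes to hold for RBCs as well. Of all tested genes, 34.2% were called higher and 12.8% were called lower in the RBC library. These include 1256 genes listed at 0 in all 3 HBC libraries, which show no spread of their own, so that limma fills in their variance from other genes. All of them were called higher, which the minimum for testing makes likely beforehand, and their p-values are left out. Without them, 28.7% of tested genes were called higher and 13.9% lower. No gene of the set of 10 is of this kind. Higher calls were thus 72.8% of all calls, a share that was 53.1% once library medians were made equal and 46.0% once quantile normalization was used. Across the tested genes, the change had a median of 0.45, against which the changes below should be read. It was -0.08 with the medians set equal and -0.13 under quantile normalization.

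Most imprinted genes of the set stood higher in the RBC library, and 1, Ndn, stood far lower. Of the 9 that passed the minimum for testing, 6 were called higher in the RBC library (H19, Peg3, Plagl1, Meg3, Mest and Peg10), 1 was called lower (Ndn) and 2 were not called (Grb10 and Nnat). The background for these counts is 34.2% called higher and 12.8% called lower among all tested genes. H19, Meg3 and Peg10 averaged below 1 in the HBC libraries and passed the minimum only through their RBC value, so their calls follow in part from that minimum. Zim1 did not pass it. The median change of the 9 was 1.72.

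**Figure D1:**
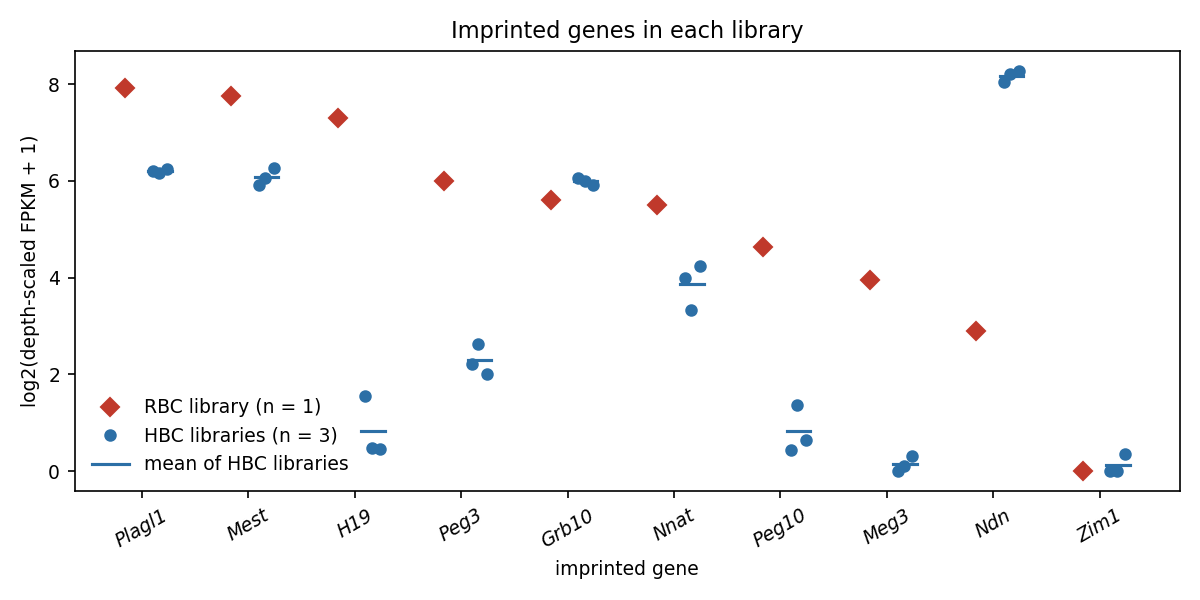
Level of each of the 10 imprinted genes in each library, as log2(depth-scaled FPKM + 1). The RBC library (diamond) is left of the 3 HBC libraries (circles, with the line at their mean). The diamond lies above all 3 circles for Plagl1, Mest, H19, Peg3, Nnat, Peg10 and Meg3, and below them for Grb10 and Ndn.

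Plagl1 encodes a zinc finger transcription factor that restrains cell division and regulates other imprinted genes, among them Igf2 and H19. Its level was 242 in the RBC library, against 72.6, 70.9 and 74.7 in HBC libraries 1, 2 and 3. The RBC value lay above all HBC values, which differed little from one another (coefficient of variation 2.66%, against a median of 4.96% over genes averaging 10 or more). Plagl1 was 3.33-fold higher in the RBC library (log2 change 1.72 ± 0.05, limma adjusted p = 0.000925). It was the most abundant of the set in that library, where 72.9% of all genes had a lower level.

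Mest, also called Peg1, encodes a hydrolase-like protein of the endoplasmic reticulum and is expressed from the paternal copy. Its level was 216 in the RBC library, against 59.5, 65.3 and 75.9 in the HBC libraries. The groups did not overlap, and the HBC libraries were more spread than for Plagl1 (coefficient of variation 12.4%). Mest was 3.22-fold higher in the RBC library (log2 change 1.68 ± 0.18, limma adjusted p = 0.00826). The call did not hold without HBC library 2, where the log2 change was 1.67 and the adjusted p was 0.0512. Across the alternatives this p ran between 0.00564 and 0.0512. Mest overlaps its antisense neighbour Copg2 at one end in the GENCODE M21 annotation, and the strand setting of the authors' counting is not given, so reads of the pair cannot be told apart there.

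Peg3 encodes a large zinc finger protein linked to growth and maternal behaviour and marks adult stem cells in several mouse tissues. Its level was 62.5 in the RBC library, against 3.65, 5.19 and 3.04 in the HBC libraries. All 3 cultures were low and the RBC value stood far above them. The difference was 15.8-fold (log2 change 3.70 ± 0.32, limma adjusted p = 0.00545). Usp29, which starts head to head with Peg3 and is also paternally expressed, was listed at 0 in all 4 libraries. It was named after its values were seen. Zim1, the maternally expressed zinc finger gene next to Peg3, was listed at 0 in the RBC library and in HBC libraries 1 and 2 and was at 0.279 in HBC library 3. That is of the order of a single read, so no level of Zim1 was measurable in either group.

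The start regions of Plagl1, Mest, Peg3 and Ndn are shown here because these genes were the most abundant called members in each direction and, for Peg3, because its start lies beside that of Usp29. Methylation of imprinted control regions falls on CG pairs, which stand in capitals. Each window runs from 250 bases before to 50 bases after an annotated start in RefSeq (build GRCm38.p6, whereas the submitters' processing notes name mm9). The windows are chr10:13090582-13090881 for Plagl1 and chr6:30737800-30738099 for Mest, both on the plus strand, chr7:6730370-6730669 on the minus strand for Peg3, and chr7:62348027-62348326 on the plus strand for Ndn.
Plagl1: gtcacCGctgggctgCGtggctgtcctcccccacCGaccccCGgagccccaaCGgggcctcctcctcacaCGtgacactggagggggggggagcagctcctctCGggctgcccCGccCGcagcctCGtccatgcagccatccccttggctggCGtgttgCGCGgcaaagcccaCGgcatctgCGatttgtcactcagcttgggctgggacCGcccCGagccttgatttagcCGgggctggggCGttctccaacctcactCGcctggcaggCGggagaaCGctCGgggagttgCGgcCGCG
Mest: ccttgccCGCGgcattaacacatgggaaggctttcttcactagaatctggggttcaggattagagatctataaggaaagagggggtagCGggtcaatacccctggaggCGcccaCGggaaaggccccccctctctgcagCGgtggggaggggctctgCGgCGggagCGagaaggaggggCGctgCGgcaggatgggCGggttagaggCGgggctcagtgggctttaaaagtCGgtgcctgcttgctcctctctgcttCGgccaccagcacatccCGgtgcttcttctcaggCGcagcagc
Peg3: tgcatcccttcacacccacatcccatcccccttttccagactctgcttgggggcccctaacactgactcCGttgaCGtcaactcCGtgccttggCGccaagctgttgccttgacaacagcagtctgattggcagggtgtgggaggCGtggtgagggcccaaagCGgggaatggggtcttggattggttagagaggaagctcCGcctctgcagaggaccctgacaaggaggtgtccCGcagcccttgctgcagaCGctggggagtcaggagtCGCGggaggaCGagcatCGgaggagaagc
Ndn: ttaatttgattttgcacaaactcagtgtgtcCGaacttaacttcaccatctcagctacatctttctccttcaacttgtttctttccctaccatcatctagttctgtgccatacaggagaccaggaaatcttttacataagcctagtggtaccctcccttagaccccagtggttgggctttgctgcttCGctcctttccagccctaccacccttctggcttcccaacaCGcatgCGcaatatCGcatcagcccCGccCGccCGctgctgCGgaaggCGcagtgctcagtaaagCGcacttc
The window of Plagl1 holds 26 CG pairs, a number reached by 16.9% of the 32851 promoter windows in the RefSeq table. The Mest window shown holds 17 (reached by 31.4%), the Peg3 window 13 (37.9%) and the Ndn window 11 (41.4%). The median window holds 7. Another annotated Mest start, with its window at chr6:30733256-30733555, has 8 CG pairs (reached by 48.6%), and gene totals do not tell which start was used. The letters TGCCGC, the core recognised by the imprint-maintaining protein ZFP57 when methylated, were searched on both strands. They occur 2 times in the Mest window shown and 1 time in the Plagl1 window, while those of Peg3, Ndn and the other Mest start have none, and 11.6% of all windows hold them. Meg3, Grb10, Nnat and Zim1 each have a window that holds them 1 time. Of the set, 8 genes had a window in the table and H19 and Peg10 had none. The Grb10 window at chr11:12037371-12037670 was the richest of the set with 45 CG pairs, a number that 1.93% of windows reach. Another annotated Grb10 start, with its window at chr11:12027922-12028221, has 9 CG pairs (reached by 45.8%).

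H19 is a maternally expressed long non-coding RNA, abundant in the embryo, that restrains growth. Its level was 157 in the RBC library, against 1.93, 0.387 and 0.382 in HBC libraries 1, 2 and 3. As deposited, HBC library 2 held the smallest value, HBC libraries 1 and 3 had 4.01 and 1.01 times that value, steps that look like single reads, and the RBC library had 411 times that value. H19 was thus at the edge of detection in the cultures and among the 3 most abundant of the set in the RBC library, so no fold is given. The log2 change was 6.47 ± 0.62 (limma adjusted p = 0.0068). With a pseudocount of 10 it was 3.94, the lowest of the alternatives, and the call held in all of them (adjusted p 0.000534 to 0.0405).

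H19 is the precursor of miR-675, and the annotation places both mature forms inside H19 on its strand. The hairpin of miR-335 lies inside Mest in the same way. The mature sequences are shown because the RNA that carries them differed between the groups. The table holds no microRNA levels, so mature miR-675 and miR-335 were not measured. Capitals mark the seed (bases 2 to 8), which pairs with target RNAs, and no seed is shared among the 4. Sequences are from RefSeq, build GRCm38.p6.
mmu-miR-675-5p: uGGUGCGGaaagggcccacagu
mmu-miR-675-3p: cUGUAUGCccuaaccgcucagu
mmu-miR-335-5p: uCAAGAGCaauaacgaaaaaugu
mmu-miR-335-3p: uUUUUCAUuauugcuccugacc

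Peg10 derives from a retrotransposon and encodes a Gag-like protein needed in the placenta. It was at 23.7 in the RBC library, against 0.359, 1.59 and 0.569 in the HBC libraries, values of the order of 1 to a few reads. The RBC value lay above the HBC values (log2 change 3.81 ± 0.49, limma adjusted p = 0.0118). That call was lost without HBC library 3 (log2 change 3.72, adjusted p = 0.0612) and under quantile normalization (1.51, adjusted p = 0.109). Across the alternatives the p ran between 0.00154 and 0.109. Sgce, the epsilon-sarcoglycan gene of the cell membrane, starts 99 bases from Peg10 in the opposite direction in GENCODE M21 (GRCm38) and is paternally expressed too. Its level was 204 in the RBC library, against 2.33, 3.12 and 4.94 in the HBC libraries (59.0-fold higher, log2 change 5.57 ± 0.43, limma adjusted p = 0.00447). Both neighbours were thus low in every culture and higher in the RBC library.

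Meg3 is a maternally expressed long non-coding RNA of the Dlk1 domain. It was at 14.4 in the RBC library, listed at 0 in HBC library 1 and at 0.0833 and 0.246 in HBC libraries 2 and 3. As deposited, HBC library 3 had 3.00 times the value of library 2, again the steps of single reads. The log2 change was 3.80 ± 0.16 (limma adjusted p = 0.00158), and it fell under the threshold with quantile normalization (1.87, adjusted p = 0.0926; between 0.000128 and 0.0926 across the alternatives). The neighbours of Meg3, named after their values were seen, were near the limit of detection. Dlk1, a paternally expressed surface protein, was at 0.240 in the RBC library, against 0.296, 2.93 and 0.478 in the HBC libraries. Rian, a maternally expressed non-coding RNA, was at 2.19 against 3.44, 2.49 and 1.64, and the groups overlapped (limma adjusted p = 0.807), though quantile normalization called it lower (log2 change -2.22, adjusted p = 0.0143).

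Ndn encodes necdin, a protein of the MAGE family that restrains cell division and supports neuronal differentiation. It was the only gene of the set called lower. Its level was 6.40 in the RBC library, against 262, 297 and 309 in HBC libraries 1, 2 and 3. The groups were far apart, and every culture was high (coefficient of variation 8.45%). Ndn was 45.2-fold lower in the RBC library (log2 change -5.29 ± 0.13, limma adjusted p = 0.000596), and the call held in all 12 alternatives, with changes of -6.58 to -4.19. It was the most abundant of the set in each culture, above 76.5% to 78.9% of all genes, and was above 38.2% of genes in the RBC library. In the GENCODE M21 annotation Ndn lies inside the non-coding RNA gene Gm32061 on the opposite strand. Without the strand setting, reads of that pair cannot be told apart. Among the 53 tested markers of other cell types listed below, 43 were called higher in the RBC library, beside 34.2% of all tested genes. The part that other cells had in the level of Ndn was not tested.

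Grb10 encodes an adaptor protein that dampens insulin and IGF receptor signalling, and is expressed from the maternal copy in most tissues and the paternal copy in neurons. It was nearly level, at 47.5 in the RBC library and at 65.4, 62.9 and 59.3 in the HBC libraries. The RBC value was the lowest, but the change of -0.39 ± 0.09 (limma adjusted p = 0.0425) was below the 2-fold minimum. Under quantile normalization, where the median of all genes moved too, Grb10 was called lower (log2 change -1.66, adjusted p = 0.00153).

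Nnat encodes neuronatin, a small membrane protein of neural and endocrine cells. It was at 44.1 in the RBC library and at 15.0, 9.03 and 18.0 in the HBC libraries. The RBC value lay above the HBC values, which were the most spread of the set among members averaging 10 or more (coefficient of variation 32.6%). The change of 1.64 ± 0.48 did not pass the threshold (limma adjusted p = 0.0657). It passed with a pseudocount of 10 (1.19, adjusted p = 0.0383) and turned to -0.11 under quantile normalization. Nnat lies inside Blcap on the opposite strand, and without the strand setting reads of the pair cannot be told apart. Blcap itself was at 296 in the RBC library and 482 ± 36.0 in the HBC libraries, a difference of less than 2-fold. With library medians made equal, Blcap was called lower (log2 change -1.21, limma adjusted p = 0.00688).

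Ordered by level in the RBC library, Plagl1 and Mest led, followed by H19, Peg3, Grb10, Nnat, Peg10, Meg3 and Ndn, with Zim1 at 0. A single library gives no spread for these neighbours. In the HBC libraries Ndn led at 289 ± 24.5, clear of Plagl1 (72.7 ± 1.94), Mest (66.9 ± 8.32) and Grb10 (62.5 ± 3.07). The ranges of Plagl1 and Mest overlapped, as did those of Mest and Grb10. Nnat (14.0 ± 4.56) and Peg3 (3.96 ± 1.11) came next, without overlap, and H19, Peg10, Meg3 and Zim1 averaged below 1. The levels of the 10 genes summed to 814 in the RBC library, against 480, 512 and 541 in the HBC libraries. Ndn made up 0.786% of that sum in the RBC library and 54.5%, 58.0% and 57.1% in the HBC libraries. Without Ndn the sum was 807 in the RBC library, against 218, 215 and 232 in the HBC libraries.

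**Figure D2:**
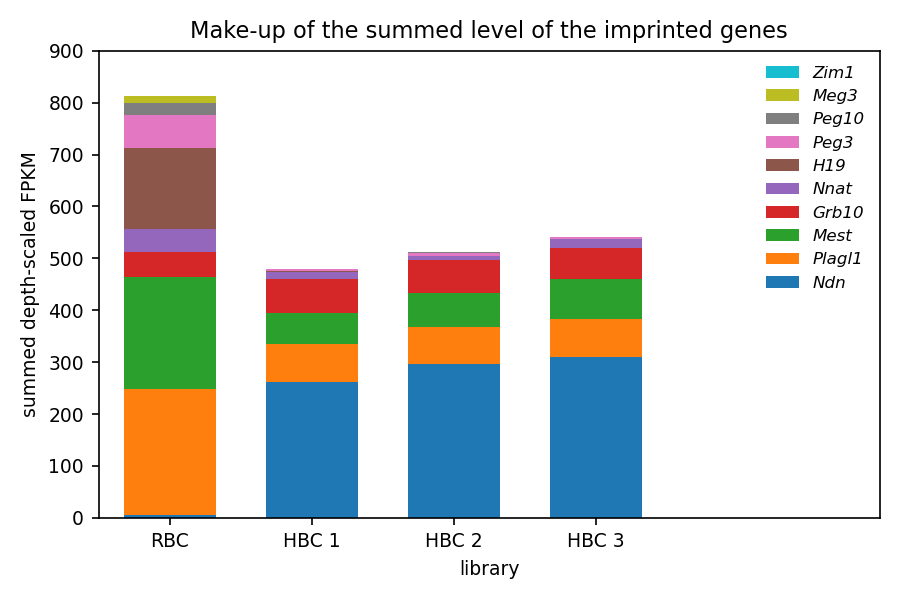
Summed depth-scaled FPKM of the 10 imprinted genes in each library, with the RBC library on the left and the 3 HBC libraries to its right. Ndn, the lowest segment, fills at least 54.5% of each HBC column and 0.786% of the RBC column, where Plagl1, Mest and H19 take most of the height.

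Imprinted genes of the same or adjoining chromosome domains did not all follow the member of the set listed with them. The H19 domain and the adjoining Kcnq1 domain on chromosome 7 held changes in both directions. Igf2, the fetal growth factor that shares enhancers with H19 and is expressed from the opposite parental copy, was at 117 in the RBC library, against 15.5, 16.8 and 14.8 in the HBC libraries (7.48-fold higher, log2 change 2.83 ± 0.13, limma adjusted p = 0.00174). H19 and Igf2 were thus both higher in the RBC library. Ascl2, a transcription factor of placenta and intestinal stem cells, was 26.5-fold higher there (62.4 against 2.36 ± 0.334). Osbpl5, an oxysterol-binding protein, was 2.26-fold higher (762 against 338 ± 24.2), a call that was lost with library medians made equal (log2 change 0.67) and with values as deposited (1.29, limma adjusted p = 0.0501). Phlda2, a small protein that limits placental growth, was 16.3-fold lower, at 17.4 in the RBC library and 275, 277 and 300 in the HBC libraries (log2 change -3.95 ± 0.07, limma adjusted p = 0.000351). Cdkn1c, the cell cycle inhibitor p57, was at 139 in the RBC library and 92.6 ± 8.42 in the HBC libraries and was not called. The ion channel gene Kcnq1 (152 against 177 ± 3.04) and the transporter gene Slc22a18 (374 against 335 ± 9.79) were not called either. The antisense RNA Kcnq1ot1, which the naming rule does not cover, had 6.55 against 0.766 ± 0.226 and was called higher, but it lies within Kcnq1 on the other strand and its direction turned under quantile normalization (log2 change -0.18) and it was under 2-fold with a pseudocount of 10 (0.62).

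In the Snrpn domain, which holds Ndn, a pair of genes besides Ndn were called lower. Snrpn, a splicing protein gene, was 2.91-fold lower, at 46.3 in the RBC library and 125, 144 and 137 in the HBC libraries (log2 change -1.52 ± 0.11, limma adjusted p = 0.00389). Peg12 was 12.0-fold lower (1.14 against 13.3, 17.6 and 10.2), a call that needed HBC library 1 (without it, log2 change -2.76 and limma adjusted p = 0.0669; between 0.00289 and 0.0669 across the alternatives). The fold of Peg12 rests on an RBC value near the limit of detection and is uncertain. Mkrn3, a ubiquitin ligase gene, went the other way (17.0 against 8.42, 7.56 and 6.29, 2.29-fold higher). It was no longer called when HBC library 2 was left out (log2 change 1.12, limma adjusted p = 0.0916), when library medians were made equal (0.63) or with a pseudocount of 10 (0.63), and the change turned to -1.09 under quantile normalization. The ubiquitin ligase gene Ube3a was at 300 against 503 ± 14.5 and the phospholipid transporter gene Atp10a was at 54.8 against 39.2 ± 6.18, both within 2-fold. With library medians made equal, Ube3a was called lower (log2 change -1.25, limma adjusted p = 0.000551).

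In the remaining domains, Cobl, an actin nucleator gene next to Grb10, had 628 in the RBC library and 118 ± 7.85 in the HBC libraries (5.34-fold higher, limma adjusted p = 0.00144) although Grb10 was not called. Cpa4, a carboxypeptidase gene near Mest, was listed at 0 in the RBC library and was at 9.37, 13.5 and 11.4 in the HBC libraries, while Copg2, a vesicle coat gene beside Mest, was nearly level (747 against 821 ± 36.2). Ppp1r9a, a gene of the Peg10 domain that encodes neurabin, was 2.23-fold higher (48.2 against 21.6 ± 2.54). It was no longer called when HBC library 2 was left out (limma adjusted p = 0.0695), when library 3 was (adjusted p = 0.0775), with equal library medians (adjusted p = 0.0543), and with a pseudocount of 10, where the change of 0.88 was under 2-fold. Under quantile normalization the change turned to -0.41.

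**Figure D3:**
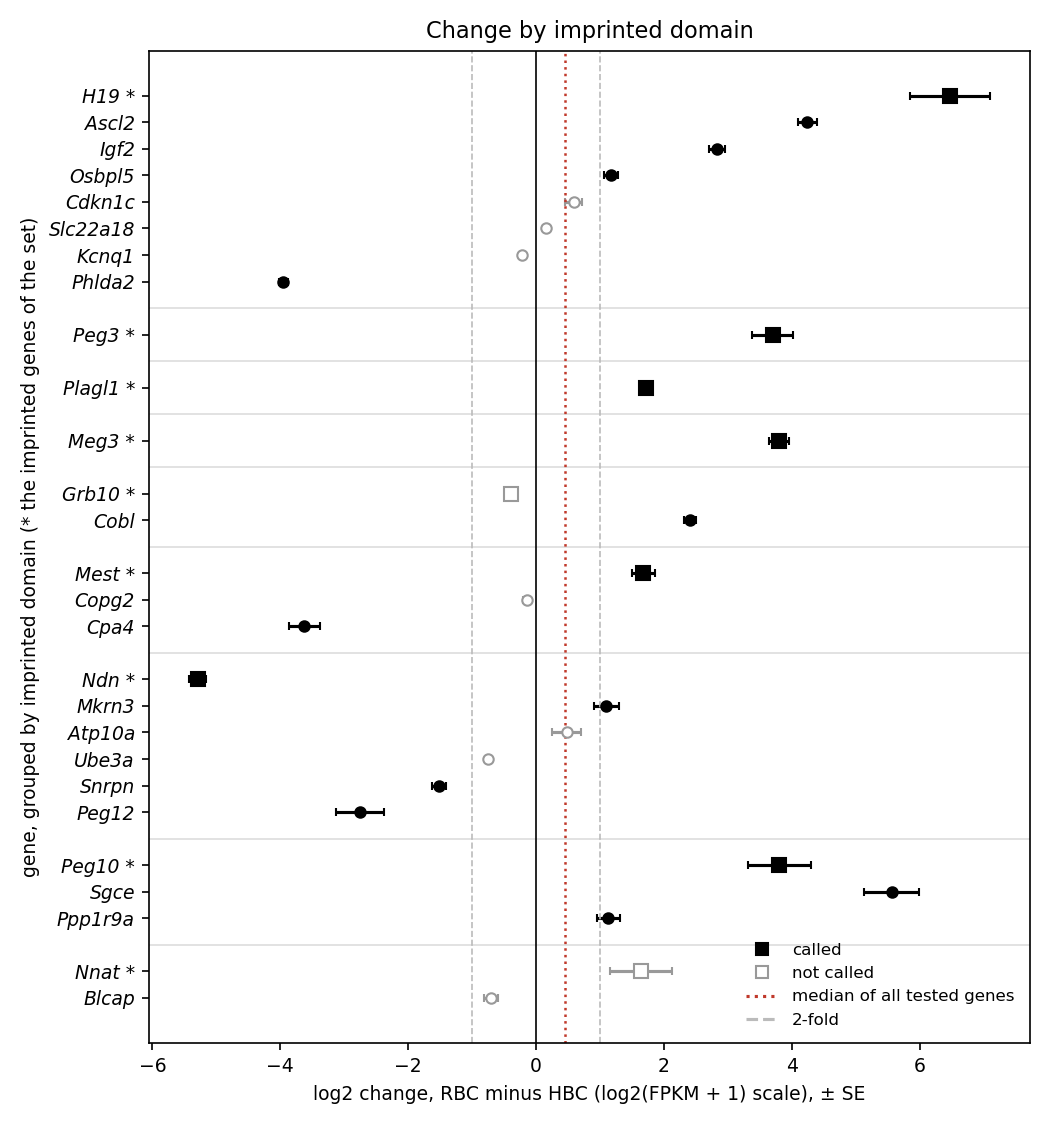
Change of each named imprinted gene, RBC minus HBC on the log2(FPKM + 1) scale with its standard error, grouped by domain in the order H19, Peg3, Plagl1, Meg3, Grb10, Mest, Ndn, Peg10 and Nnat (squares, marked *). Filled symbols passed the test and the 2-fold minimum. The H19 block also holds the adjoining Kcnq1 domain, where Phlda2 lies far left of H19. Snrpn and Peg12 lie left with Ndn, and Sgce lies right with Peg10.

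Of 46 other imprinted genes on a list, 45 were in the table and 31 were tested. In the RBC library 13 of them were called higher and 5 lower, with a median change of 0.48, beside 34.2% and 12.8% called and a median change of 0.45 over all tested genes. The list as a whole thus lay near the background in median. Grouped by the parental copy known to be expressed in mouse, 9 of 15 tested paternally expressed genes were called higher and 3 lower (median change 2.10). Of 16 tested maternally expressed genes, 4 were called higher and 2 lower (median change 0.02). The difference between these 2 groups was not tested. Several listed genes are imprinted only in some tissues, and the copy in use was not measured. The genes outside the domains of the set that were called were Nap1l5 (17.5 in the RBC library, against 0.229 ± 0.396 in the HBC libraries), Zdbf2 (14.1 against 0.343 ± 0.0894), Peg13 (358 against 36.4 ± 1.56), Airn (655 against 85.0 ± 17.6) and Zrsr1 (283 against 55.8 ± 2.41), all higher. Of these, the call of Nap1l5 was lost under quantile normalization (limma adjusted p = 0.136) and with a pseudocount of 0.1 (adjusted p = 0.0561). Nap1l5, Zdbf2 and Kcnq1ot1 averaged below 1 in the HBC libraries and were tested only because of their RBC value. Mcts2 was the only gene outside these domains called lower (260 against 649 ± 50.1), and its call was lost with values as deposited (log2 change -1.20, limma adjusted p = 0.0593). Airn runs antisense through Igf2r, while Peg13, Zrsr1, Nap1l5 and Mcts2 each lie inside another gene, and reads of such pairs could be assigned to either. Mcts2 and Zrsr1 are also retrocopies of other genes.

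**Figure D4:**
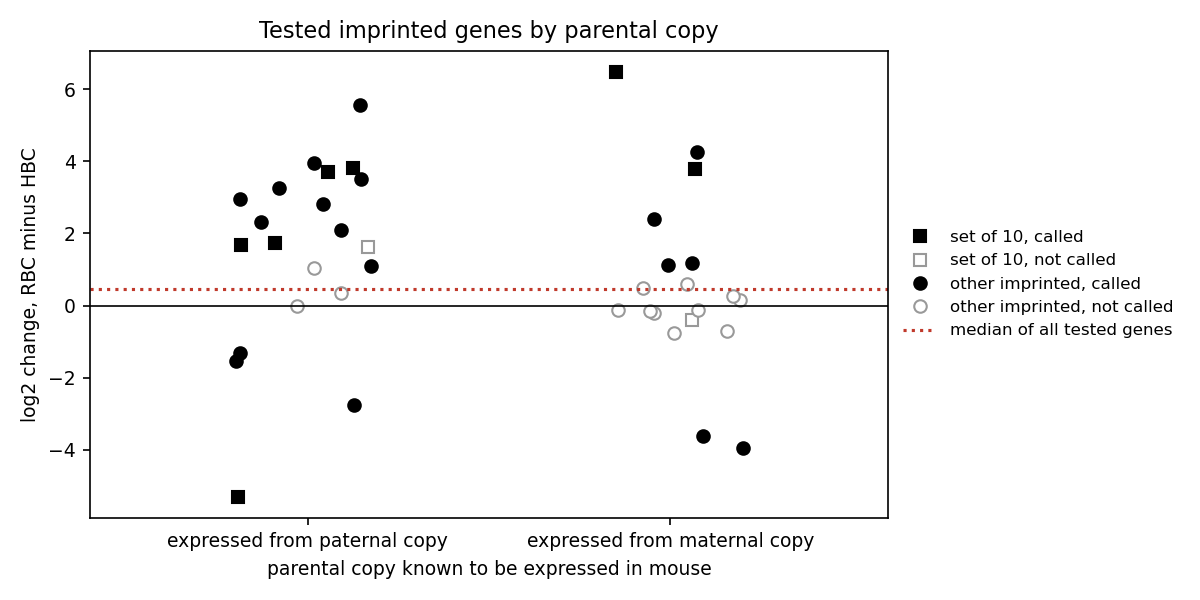
Change of every tested imprinted gene, RBC minus HBC on the log2(FPKM + 1) scale, by the parental copy known to be expressed in mouse. Squares are the set of 10 and circles the other listed genes, filled where called. Of the circles, 9 of 15 on the left and 4 of 16 on the right are called higher.

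Genes that regulate imprints or DNA methylation, including some that act against methylation, differed in both directions. Of 17 tested genes on this list, 5 were called higher and 3 lower in the RBC library, with a median change of 0.21. Over all tested genes, 34.2% were called higher and 12.8% lower, with a median change of 0.45. Uhrf1, which guides the maintenance methyltransferase to newly copied DNA, was 2.84-fold lower, at 121 in the RBC library and 343, 336 and 355 in the HBC libraries (limma adjusted p = 0.000846). Hells, a chromatin remodeller needed for DNA methylation, was 4.22-fold lower (87.4 against 368 ± 13.4). Dnmt1, the maintenance methyltransferase itself, was within 2-fold (258 against 325 ± 12.4). The Tet enzymes, which oxidise methylated cytosine, were called higher, Tet1 after reaching the minimum for testing only through its RBC value. Tet2 was at 175 against 72.0 ± 4.23 and Tet3 at 286 against 120 ± 5.83, but neither reached 2-fold once library medians were made equal (log2 changes 0.77 and 0.74), nor did Tet2 under quantile normalization (0.76). Tet1 was at 12.9 against 0.169 ± 0.102. Zfp57, the zinc finger protein that protects imprints, was at 28.8 in the RBC library, against 9.16, 5.60 and 8.02 in the HBC libraries. Leaving out HBC library 1 or library 3 ended the call (limma adjusted p = 0.0575 and 0.0892), and its direction turned under quantile normalization (log2 change -0.27).

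Most tested markers of other cell types were called higher in the RBC library. Basal markers were present in both groups. They summed to 87584 in the RBC library, against 31269 to 32347 in the HBC libraries, and 6 of 8 were called higher. The 2 not called were Krt5 (26488 against 18625 ± 369) and Itga6, which lay below all HBC values (844 against 1284 ± 21.4). Of 53 tested markers of other cell types, 43 were called higher in RBCs and 2 were called lower, beside 34.2% and 12.8% of all tested genes. Of the 43, 10 were listed at 0 in all HBC libraries and have no p-value here. All 8 fibroblast markers were called higher and summed to 7730 in the RBC library, against 49.4 to 70.4 in the HBC libraries, with Dcn at 6902 against 44.0 ± 11.8 and Col1a1 at 361 against 1.27 ± 0.265. All 8 neuron markers were called higher (sum 2085 against 93.5 to 97.2), led by Omp (1500 against 63.5 ± 1.94) and Tubb3 (148 against 24.9 ± 1.15). Of the leukocyte markers 5 of 7 tested were called higher (sum 14946 against 509 to 584), with Lyz2 at 14770.2 against 21.5 ± 3.00, and Cd68 lower (65.7 against 515 ± 42.6). Lyz2 alone made up nearly all of the RBC sum, and Cd68 most of each HBC sum. Mural cell markers were called higher in 6 of 8 (sum 2029 against 514 to 570), with Acta2 at 881 against 1.37 ± 0.338 and Rgs5 not called (370 against 419 ± 22.9). Glial markers were called higher in 5 of 5 tested (sum 300.4 against 4.46 to 12.4), with Sox10 (109) listed at 0 in the HBC libraries and S100b at 62.2 against 0.424 ± 0.367.

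Endothelial markers overlapped in sum (90.8 against 87.2 to 140.1), with 6 of 8 called higher. Among them Cldn5 (23.7) was listed at 0 in the HBC libraries, whereas Egfl7 was lower (19.3 against 109 ± 27.1), a call that ended when HBC library 2 was left out (log2 change -2.44, limma adjusted p = 0.0737). Cartilage and bone markers (4 of 7 called higher, sum 596 against 339 to 351) were led by Sox9 (284 against 200 ± 2.84, not called) and Bglap (143 against 1.40 ± 2.42), which was no longer called when HBC library 2 or library 3 was left out (limma adjusted p = 0.111 and 0.109). Of 6 skeletal muscle markers 2 were tested, and the sum of the list was 98.3 against 12.3 to 18.8. Pax7 (91.1 against 0.190 ± 0.329) was called higher and Acta1 (5.80 against 14.7 ± 3.25) was not called, while Myod1 and Myf5, which define the muscle lineage, were listed at 0 in all 4 libraries. In these bulk samples, fewer cells of a type and less RNA per cell cannot be told apart. The part that other cells had in the higher levels of H19, Igf2, Peg3, Mest, Meg3, Peg10, Sgce and Plagl1 in the RBC library was not tested.

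**Figure D5:**
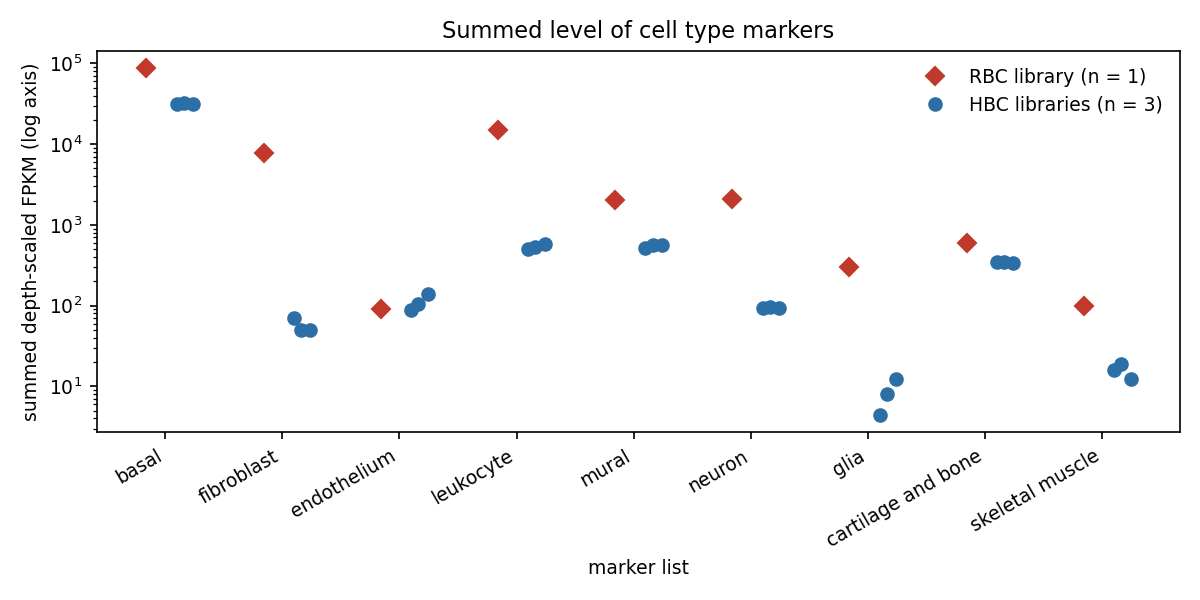
Summed depth-scaled FPKM of each marker list on a log axis, with the RBC library (diamond) left of the 3 HBC libraries (circles). The diamond lies above the circles for every list but endothelium, and for fibroblast markers it is at 7730, against 49.4 to 70.4 for the circles. For leukocyte markers the height of the diamond comes almost wholly from Lyz2.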

How the data were processed

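RNA was sequenced from 1 library of sorted RBCs and 3 of cultured HBCs. The authors deposited 1 table of FPKM values, 1 per gene symbol and library. Named in the submitters' processing notes are Cuffnorm, Cufflinks 2.2.1, STAR and mm9, with no role or order. The annotation, strand setting and filters were not given in the sources used here. Column sums were 9877606 for the RBC library and 8377232, 10335122 and 10855996 for the HBC libraries. Reads per library are not given, so depth is unknown and no counting interval is given. Among genes with all values below 4, 12.4% to 26.0% had a ratio within 2% of 1 between a pair of libraries, although sums differed, so depth had apparently not been removed. Values were therefore divided by 1 factor per library, taken from 11134 genes at 10 or more in all 4 as the median of their ratios to the geometric mean (1.06 for RBC, and 0.843, 1.05 and 1.07 for HBC).

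A gene was tested where the mean of the RBC value and the HBC mean was at least 1. The limma package (version 3.58.1, R 4.3.3) was run on log2(value + 1) (mean-variance trend, 2 residual degrees of freedom, two-sided), and the procedure was tested on simulated data. The simulation gave RBC values the spread of the HBC libraries and changed few genes, with either direction equally likely. It therefore cannot test the scaling of the real values or the unknown spread of RBCs. Genes at 0 in all HBC libraries have no measured spread: they count as called in the fit, but their p-value is not printed. The imprinted genes and lists were chosen with earlier results of these data known. Named genes are the set of 10, genes of the same domains reaching 10 in a library, up to 6 called genes of other domains, up to 6 called imprint regulators with Dnmt1 and Uhrf1, the 2 most abundant of each list of other-cell markers, and some of the overlapping genes. In this rule the adjoining Kcnq1 domain was counted with that of H19. Alternatives covered scaling, pseudocount, minimum value, trend and leaving out each HBC library.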

Additional observations from a re-analysis of the deposited data

How the results depend on the processing

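Of the set of 10, 6 were called higher in the RBC library as reported. This became 4 under quantile normalization, 7 with a pseudocount of 10 and 5 without HBC library 2 or 3, and stayed at 6 in the other alternatives. Ndn was called lower in all 12. Under quantile normalization 2 of the set were called lower in place of 1, Grb10 being added. Over all genes, calls of lower genes were 2105 as reported, 3799 with the medians set equal and 3586 under quantile normalization, where higher calls were 3049 in place of 5621. Directions turned under quantile normalization for Nnat (log2 change -0.11), Mkrn3 (-1.09), Copg2 (0.031), Atp10a (-0.81), Ppp1r9a (-0.41), Zfp57 (-0.27) and Kcnq1ot1 (-0.18), with the medians set equal for Slc22a18 (-0.35), Atp10a (-0.015) and Sox9 (-0.002249), and with a library left out for Rian (-0.30 to 0.074). The cause was not tested. Of 670 values for 56 named genes, 623 kept direction and side of the threshold. No paired analysis was possible because the groups share only 1 replicate number. With 1 RBC library and unknown read depth, the spread of the RBC values cannot be measured.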
